A study of Mus musculus with 12 samples.

Results

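Serpins are a superfamily of protease inhibitors, and the liver secretes much of the serpin protein found in plasma. The genes described here are the rows of the count table whose symbol is Serpin followed by a clade letter from a to i, a number and an optional letter, with Serpina6 and Serpina3n left out. The rule takes no measured value and finds 60 of the 21683 genes in the table. Of these, 28 had enough counts to be tested, 14 had some counts but fell below the filter on low counts, and 18 had no count in any library. Expression was measured by RNA-seq of liver from F1 male wild-type mice in 2 groups of 6 animals. In the paternal DCHP group, the sires had received dicyclohexyl phthalate (DCHP), a plasticizer, by oral gavage for 4 weeks from 8 weeks of age, and in the paternal control group the sires had received the vehicle. All offspring of both groups were kept on a high-fat diet (HFD) from 3 weeks of age, for 9 weeks, so no liver of mice on a standard diet was part of the comparison. Each library was placed in its group by its title. No label names the sire or litter of an animal, so p-values measure only how much these 12 livers vary. The tests treat the 6 livers of a group as independent, and p-values could be too small if livers shared a sire or litter.

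Most serpins act as suicide substrates. The target protease cleaves an exposed reactive loop, the serpin changes shape, and the protease is trapped in an inactive complex. The residues of the loop decide which protease is caught, from elastase and trypsin to thrombin, plasmin and kallikrein. Some family members have lost this activity and serve as hormone carriers or chaperones. Hepatocytes make the abundant plasma members of clades A, C, D, F and G, while clade B members stay inside cells and protect them from their own or from leukocyte proteases. Mice carry several tandem copies of the genes for alpha-1-antitrypsin (Serpina1) and alpha-1-antichymotrypsin (Serpina3), where humans have a single copy of each.

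Totals of estimated counts lay between 23794728 and 30445338 in the paternal DCHP libraries and between 23852848 and 29495170 in the paternal control libraries. The serpins took 2.55% to 3.75% of all counts in the paternal DCHP livers (mean 3.35 ± 0.46%) and 2.71% to 3.45% in the paternal control livers (mean 2.96 ± 0.29%, SD, n = 6 each), and these ranges overlapped. The 4 hepatocyte markers found in the table summed to 51085 to 74450 CPM (counts scaled to the TMM-adjusted library size) with paternal DCHP and to 55604 to 67416 CPM in controls, so the tissue label was met in every library. Over all genes, 159 of the 12459 tested were called, and leaving out a single library moved that number from 7 (without control 3) to 233 (without DCHP 6).

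The 5 expressed Serpina1 copies are nearly the same in sequence, and this decides how well their reads can be told apart. The 90 coding bases below end just before the conserved segment that follows the reactive loop and lie in the last exon of each gene. They are shown because the loop is where the copies differ most, and because it holds the bait that sets the target protease. Capitals mark the 17 positions at which the 5 copies are not all the same (GENCODE transcripts, GRCm38, 5′ to 3′ on the coding strand).
Serpina1e, chr12:103947108-103947197, minus strand: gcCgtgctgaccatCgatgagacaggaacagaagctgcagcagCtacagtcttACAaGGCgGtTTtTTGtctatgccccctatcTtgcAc
Serpina1a, chr12:103853765-103853854, minus strand: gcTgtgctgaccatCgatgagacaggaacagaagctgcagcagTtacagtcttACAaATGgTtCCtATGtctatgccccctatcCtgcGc
Serpina1b, chr12:103728332-103728421, minus strand: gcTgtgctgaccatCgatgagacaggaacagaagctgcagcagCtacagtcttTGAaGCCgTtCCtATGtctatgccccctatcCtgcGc
Serpina1c, chr12:103895102-103895191, minus strand: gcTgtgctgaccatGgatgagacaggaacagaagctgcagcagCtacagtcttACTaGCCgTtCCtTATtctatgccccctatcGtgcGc
Serpina1d, chr12:103763770-103763859, minus strand: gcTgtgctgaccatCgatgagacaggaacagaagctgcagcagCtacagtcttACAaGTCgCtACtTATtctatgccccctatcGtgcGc
Over these bases Serpina1e differed from each of the other 4 copies at 9 to 11 positions, while Serpina1a and Serpina1b differed at 6 and Serpina1c and Serpina1d at 5. Over the whole coding sequence of 1239 bases, Serpina1b, Serpina1c, Serpina1d and Serpina1e were between 96.3% and 96.7% identical in each pair. Serpina1a has an annotated coding length of 1308 bases and was not aligned over its full length.

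The sequences upstream of the start sites were compared in a window of 120 bases per copy. Each window was placed to end with the longest stretch that all 5 copies share in the 250 bases upstream. Its end lay between 0 bases (Serpina1d) and 62 bases (Serpina1e) before the start site. The next lines show 120 bases of RefSeq promoter sequence (GRCm38.p6) for Serpina1e, for the most abundant copy, Serpina1c, and for Serpina1d, the copy with the most differences from Serpina1e. Capitals mark the 10 positions at which the 5 copies are not all the same.
Serpina1e, chr12:103956960-103957079, minus strand: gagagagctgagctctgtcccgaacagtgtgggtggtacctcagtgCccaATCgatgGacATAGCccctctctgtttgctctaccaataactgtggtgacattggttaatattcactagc
Serpina1c, chr12:103904962-103905081, minus strand: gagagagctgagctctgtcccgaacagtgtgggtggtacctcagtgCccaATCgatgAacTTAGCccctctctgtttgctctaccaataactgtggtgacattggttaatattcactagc
Serpina1d, chr12:103773634-103773753, minus strand: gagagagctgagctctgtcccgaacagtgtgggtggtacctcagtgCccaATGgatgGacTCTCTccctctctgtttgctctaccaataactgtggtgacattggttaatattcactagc
Serpina1e differed from Serpina1c at 2 of the 120 bases, from Serpina1a at 2, from Serpina1b at 3 and from Serpina1d at 6. The last 55 bases are the same in all 5 copies because the windows were placed by this shared stretch. They hold GTTAAT, the core letters of the site of hepatocyte nuclear factor 1, which was found on either strand in the 250 bases upstream of 8 of the 21 tested serpins with a RefSeq promoter and of 6.43% of all 32851 promoters. All 5 Serpina1 copies were among the 8, with Serpina3c, Serpina7 and Serpinb8. The letters TTCNNNGAA, the core of STAT sites, were found upstream of 4 of the 21 and of 7.02% of all promoters. Such matches describe the letters only.

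Expression spanned a wide range across the family. Measured per kilobase of exon and averaged over all 12 livers, Serpina1c stood highest at 5069 CPM per kb, followed by Serpina3k at 4037, Serpina1b at 2051, Serpina1d at 2048, Serpina1a at 1799 and Serpina1e at 1007. Serpina1b and Serpina1d did not differ beyond their spread, and the livers of Serpina1e ranged over the levels of its neighbours. A second tier held Serping1 (254 CPM per kb), Serpinf2 (216), Serpina3m (197), Serpinf1 (167), Serpind1 (166) and Serpinc1 (137), where Serpinf1 and Serpind1 could not be ordered. The length used is that of all annotated exons, so the order depends on the annotation. For Serpinc1 it is 8546 bases, against 4970 in its longest coding transcript. By CPM Serpinc1 was the highest of this tier, with means of 1154 in paternal DCHP and 1187 in control livers. Serpina10 (41.3), Serpina11 (32.9), Serpina12 (22.0) and Serpina7 (14.4) followed, and the other 12 tested genes lay between 0.15 and 5.76 CPM per kb. By CPM, Serpina3k was the 9th and Serpina1c the 14th most abundant of all genes tested.

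**Figure D1:**
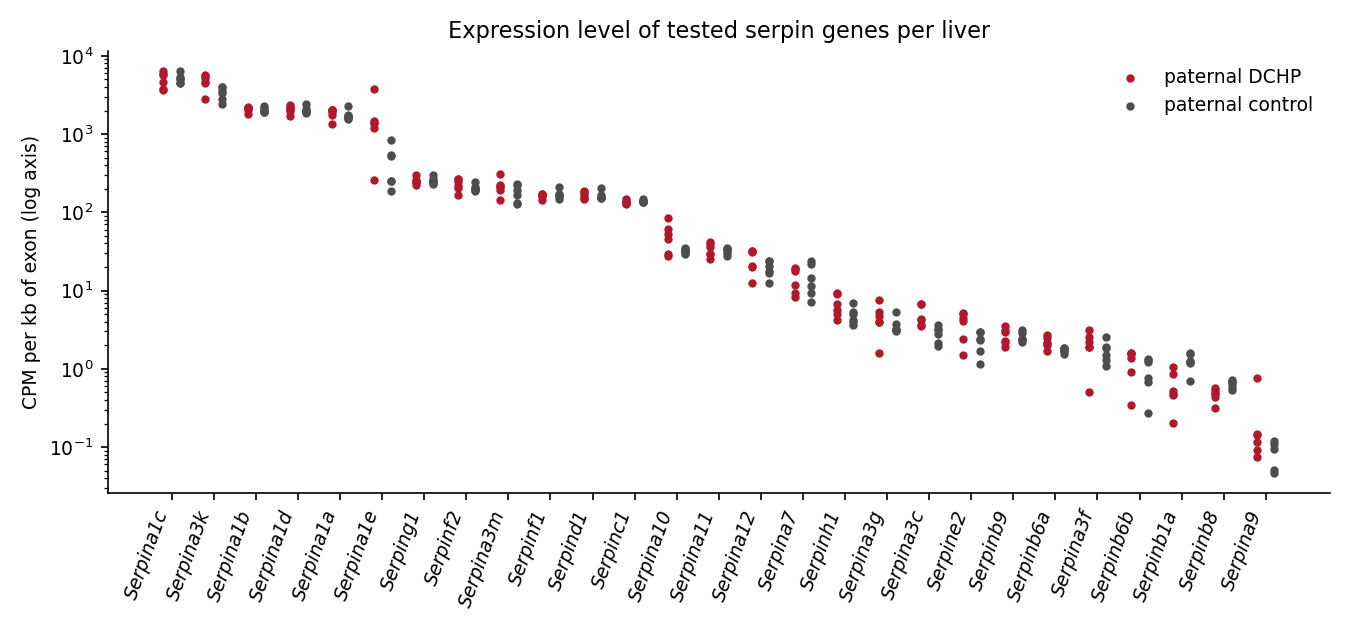
Level of 27 of the 28 tested serpin genes in each liver, in CPM per kb of exon on a log axis, with the 6 paternal DCHP livers in red to the left of the 6 paternal control livers in grey. Genes are ordered by the mean over all 12 livers, from Serpina1c at 5069 to Serpina9 at 0.15 CPM per kb, and the livers of Serpina1e spread more widely than those of the other abundant copies (a value of 0 is not drawn).

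The comparison asks which serpin genes differ in the liver of HFD-fed male offspring after paternal DCHP exposure. Serpina1e, a copy of alpha-1-antitrypsin, rose 3.67-fold on average, and Serpina3c, a member of the Serpina3 cluster known as kallikrein-binding protein, rose 1.72-fold. These 2 of the 28 tested serpins were called (edgeR FDR under 0.1 and fold change above 1.5), against 1.28% of all 12459 tested genes. Both were called higher, against 0.963% of all tested genes, and 0 were called lower, against 0.313%. Serpinb1a, Serpinb6a, Serpina10, Serpina3k, Serpinb8 and Serpine2 came next in p and did not pass, with edgeR adjusted p between 0.112 and 0.180. The ranges of the groups overlapped for each of the 28 genes, whereas 2.16% of all tested genes had groups that did not overlap.

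Across the family, 21 of the 28 tested serpins (75%) had a log2 fold change above 0, against 51.5% of all genes tested. The median log2 fold change was 0.20, against 0.01 over all genes tested. An unadjusted p under 0.05 was reached by 8 serpins with a positive and 2 with a negative log2 fold change, against 10.6% and 8.34% of all tested genes. At an FDR under 0.2, without a fold change minimum, 8 of the 28 passed, against 12.6% of all tested genes. The serpins also varied more between animals of a group than most genes did, with a median SD of 0.35 on the log2 scale against 0.23 over all genes. The 5 Serpina1 copies share sequence, and the clusters lie side by side on chromosome 12, so these genes do not count as independent observations. Since whole liver was sequenced, fewer cells of a type and less RNA per cell cannot be told apart.

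**Figure D2:**
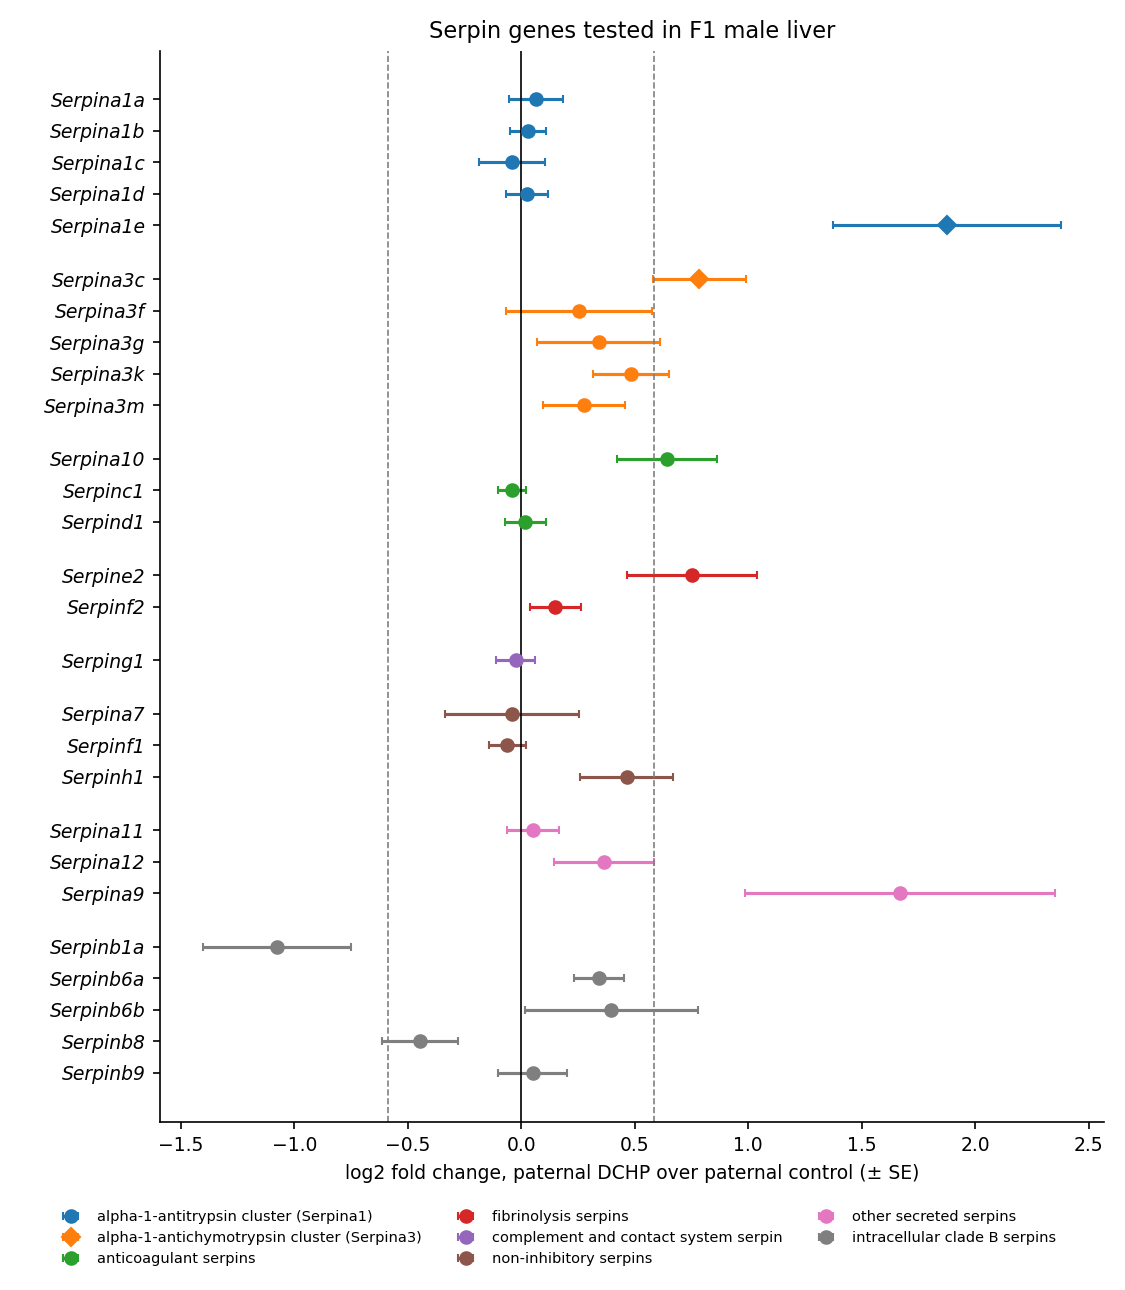
Log2 fold change, paternal DCHP over paternal control, with its SE, for 27 of the 28 tested serpin genes grouped by role, where diamonds mark the 2 called genes and dashed lines mark a fold change of 1.5 in either direction. Serpina1e (1.87) and Serpina3c (0.78) lie right of the line, Serpinb1a (-1.08) is the lowest, and the other 4 Serpina1 copies lie near 0.

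The Serpina1 cluster on chromosome 12 holds the mouse copies of the gene for alpha-1-antitrypsin, known as an inhibitor of neutrophil elastase in plasma. Loop bases differ between the copies, and which protease each copy inhibits was not measured. Of the 6 members of this cluster by the rule, Serpina1a to Serpina1e were tested and Serpina1f had no count. Serpina1e (chr12:103946931-103958975, minus strand) had a lowest level of 415, a median of 2249 and a highest of 6174 CPM in the paternal DCHP livers, against 303, 631 and 1344 CPM in the paternal control livers. DCHP 2 stood highest, 5 of the 6 DCHP livers lay above all controls, and DCHP 3 lay within the control range. The log2 fold change was 1.87 ± 0.50 (SE, edgeR adjusted p = 0.0853), with means of 2559 ± 1914 CPM in paternal DCHP and 698 ± 400 CPM in paternal control livers (SD, n = 6 each). Across all 12 livers the level of Serpina1e varied 20.4-fold, and its spread within groups was larger than that of 98.0% of all genes tested. Without DCHP 2 the log2 fold change was 1.40 and the call was lost (edgeR adjusted p = 0.129).

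The call of Serpina1e also depended on other single livers. It was lost without control 2 (edgeR adjusted p = 0.119), control 3 (0.176), control 4 (0.135), control 5 (0.164) or control 6 (0.147). It was likewise lost without DCHP 1 (edgeR adjusted p = 0.101), DCHP 4 (0.114) or DCHP 5 (0.120), and held without control 1, DCHP 3 or DCHP 6. The direction was the same in each of these fits.

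None of the other 4 copies passed the test. Serpina1a had a lowest, median and highest level of 2431, 3598 and 3746 CPM in paternal DCHP livers, against 2876, 3105 and 4129 CPM in controls. Serpina1b had 4302, 5175 and 5284 CPM with paternal DCHP, against 4559, 4777 and 5523 CPM in controls. For both copies DCHP 3 was the lowest and control 1 the highest of all 12 livers, and the groups overlapped. Serpina1c had 4980, 7050 and 8742 CPM with paternal DCHP, against 6044, 6859 and 8692 CPM in controls. Serpina1d had 2379, 2892 and 3281 CPM with paternal DCHP, against 2578, 2742 and 3341 CPM in controls. The ranges overlapped for these copies too, and DCHP 2 and DCHP 3 were the only livers below all controls for Serpina1c. Log2 fold changes were 0.07 ± 0.12 for Serpina1a, 0.03 ± 0.08 for Serpina1b, -0.04 ± 0.15 for Serpina1c and 0.03 ± 0.09 for Serpina1d (SE, edgeR adjusted p from 0.792 to 0.907).

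**Figure D3:**
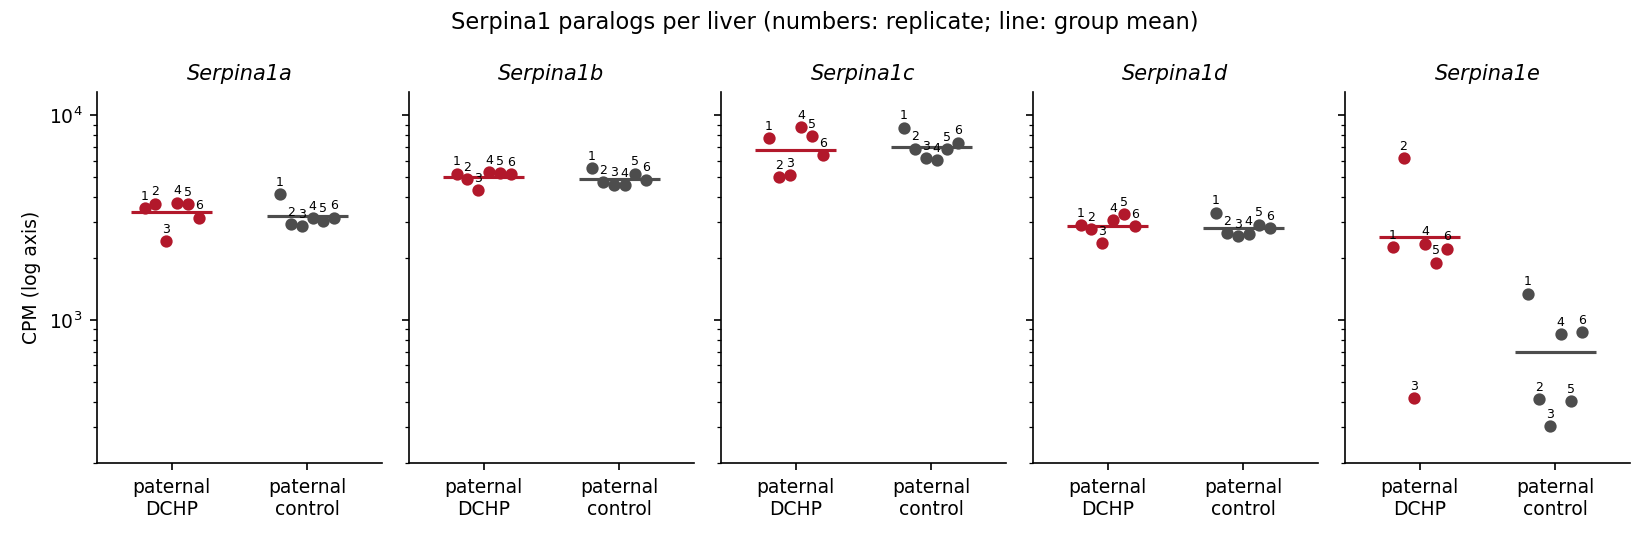
CPM of the 5 expressed Serpina1 copies in each liver on a shared log axis, paternal DCHP in red at the left and paternal control in grey at the right of each panel, with the replicate number beside each point and a line at the group mean. Serpina1e runs from 303 CPM in control 3 to 6174 CPM in DCHP 2, while the other copies stay within a 1.76-fold range of livers.

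When the 5 copies were summed before fitting, the cluster was not called. The sum had a lowest, median and highest level of 14628, 21793 and 23197 CPM in paternal DCHP livers, against 16506, 18011 and 23029 CPM in controls, with a log2 fold change of 0.15 ± 0.12 (SE, edgeR adjusted p = 0.530). DCHP 3 was the lowest of the 12 livers, and the groups overlapped. Within the sum, the share of Serpina1e ranged from 2.84% to 27.4% with a median of 10.3% in paternal DCHP livers, against 1.84% to 5.83% with a median of 3.46% in controls. The share was highest in DCHP 2 and between 8.68% and 11.3% in DCHP 1, 4, 5 and 6, while DCHP 3 lay within the control range. In DCHP 2 the share of Serpina1c was 22.1%, the lowest of the 12 livers, against 35.0% to 39.1% in the control livers. Serpina1a took 16.0% to 16.8% with paternal DCHP and 16.6% to 18.3% in controls.

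**Figure D4:**
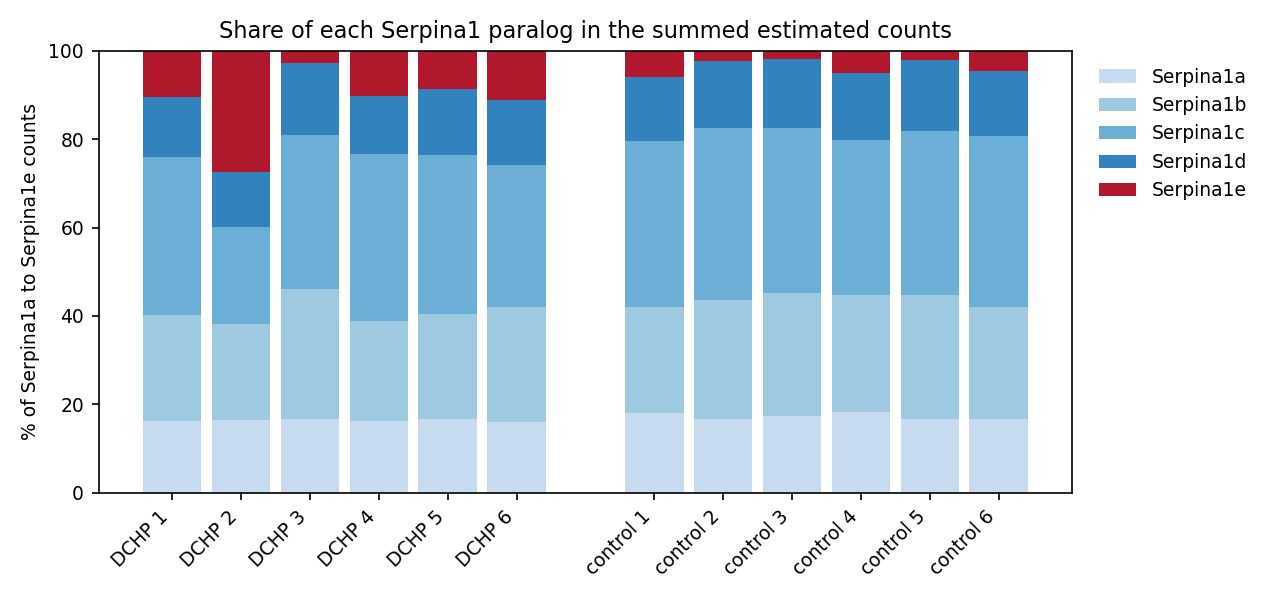
Share of each Serpina1 copy in the summed estimated counts of Serpina1a to Serpina1e, in percent, with 1 bar per liver, the 6 paternal DCHP livers at the left and the 6 paternal control livers at the right. The red segment of Serpina1e is 27.4% in DCHP 2, 2.84% in DCHP 3 and at most 5.83% in the control livers.

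How reads that match several copies were counted is not given in the sources used here. Of all windows of 50 bases in its transcript, 64.4% occurred in no other gene for Serpina1e, 64.2% for Serpina1b, 49.1% for Serpina1d, 32.6% for Serpina1a and 25.8% for Serpina1c. With windows of 100 bases the unique share was 85.2% for Serpina1e and 41.5% for Serpina1c. Serpina1e was thus one of the better separable copies, while single values of Serpina1a and Serpina1c are uncertain, and Serpina1c further shares 429 exonic bases with the antisense gene B430119L08Rik.

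The Serpina3 cluster lies next to it on chromosome 12 and has expanded in mice into many copies with different reactive loops. Of its 9 members by the rule, 5 were tested and 1 was called higher, against 0.963% of all tested genes. All 5 had positive log2 fold changes, from 0.26 to 0.78, against 51.5% positive over all tested genes. Serpina3c (chr12:104146382-104153870, minus strand) had a lowest, median and highest level of 7.85, 9.47 and 15.0 CPM in paternal DCHP livers, against 4.29, 6.60 and 8.06 CPM in controls. DCHP 1 and DCHP 4 stood well above the rest, 4 of the 6 DCHP livers lay above all controls, and DCHP 3 and DCHP 6 lay just within the control range. The log2 fold change was 0.78 ± 0.20 (SE, edgeR adjusted p = 0.0807), with means of 10.8 ± 3.31 CPM with paternal DCHP and 6.25 ± 1.47 CPM in controls (SD, n = 6 each). Without DCHP 1 and DCHP 4 together the log2 fold change was 0.47 and the call was lost (edgeR adjusted p = 0.181).

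Single livers also decided the call of Serpina3c. It was lost without control 1 (edgeR adjusted p = 0.117), control 3 (0.171), control 4 (0.142), control 5 (0.133) or control 6 (0.135), and without DCHP 1 (0.116), DCHP 4 (0.121) or DCHP 5 (0.115). It held without control 2, DCHP 2, DCHP 3 or DCHP 6, and the log2 fold change lay between 0.66 and 0.87 in these fits. Its sequence is well separated from its relatives, with 95.8% of 50-base windows found in no other gene.

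Serpina3k, which encodes contrapsin, a trypsin inhibitor of mouse plasma, took most of the Serpina3 counts summed without Serpina3n. It had 94.2% to 97.2% of them in paternal DCHP livers and 94.5% to 96.4% in controls. Its lowest, median and highest levels were 5755, 10072 and 11703 CPM with paternal DCHP, against 5019, 7106 and 8333 CPM in controls. All DCHP livers but DCHP 3 lay above all controls, yet the log2 fold change of 0.48 ± 0.17 did not pass (SE, edgeR adjusted p = 0.147). Without DCHP 3 it was 0.60 and Serpina3k was called (edgeR adjusted p = 0.0582). The summed cluster, again without Serpina3n, gave the same picture. Its lowest, median and highest levels were 6107, 10406 and 12268 CPM with paternal DCHP, against 5260, 7514 and 8679 CPM in controls. The log2 fold change was 0.48 ± 0.17 (SE, edgeR adjusted p = 0.148). The sum too was called without DCHP 3 (log2 fold change 0.59, edgeR adjusted p = 0.0626).

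Serpina3m had a lowest, median and highest level of 248, 367 and 534 CPM with paternal DCHP, against 218, 310 and 396 CPM in controls. Serpina3g, which encodes an inhibitor of cysteine cathepsins in leukocytes, had 3.37, 9.17 and 16.2 CPM with paternal DCHP, against 6.42, 6.69 and 11.1 CPM in controls. Serpina3f had 1.17, 4.75 and 7.22 CPM with paternal DCHP, against 2.48, 3.87 and 5.77 CPM in controls. For Serpina3g and Serpina3f the same liver, DCHP 1, was the lowest and DCHP 6 the highest of all 12. For Serpina3c these livers stood the other way round, with DCHP 1 the highest of the 12 and DCHP 6 the lowest of the DCHP livers. None of the 3 genes passed (log2 fold changes of 0.28 ± 0.18, 0.34 ± 0.27 and 0.26 ± 0.32, SE, edgeR adjusted p = 0.425, 0.507 and 0.696). Serpina3k and Serpina3m share 60 exonic bases, and 86.0% and 80.9% of their 50-base windows were unique.

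Of 4 serpins that restrain clotting, 3 were tested and 0 were called by edgeR with all libraries. Serpina10 encodes the protein Z-dependent protease inhibitor, which inactivates factor Xa. Its lowest, median and highest levels were 95.6, 173 and 296 CPM in paternal DCHP livers, against 103, 112 and 124 CPM in controls. The controls were close together, 4 DCHP livers lay above them with DCHP 4 highest, DCHP 6 lay among them and DCHP 3 lay below them. The log2 fold change of 0.64 ± 0.22 did not pass (SE, edgeR adjusted p = 0.147), and was 0.44 without DCHP 4 (edgeR adjusted p = 0.222). Serpina10 was called without DCHP 3 (0.77, edgeR adjusted p = 0.0739), without DCHP 6 (0.76, edgeR adjusted p = 0.0759) and by DESeq2 (0.64, DESeq2 adjusted p = 0.0542).

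Antithrombin and heparin cofactor II, which both inactivate thrombin, are encoded by Serpinc1 and Serpind1. Serpinc1 had a lowest, median and highest level of 1085, 1140 and 1259 CPM with paternal DCHP, against 1142, 1174 and 1281 CPM in controls. Serpind1 had 327, 363 and 408 CPM with paternal DCHP, against 332, 341 and 451 CPM in controls. Serpinc1 had the smallest spread of the 28 genes, with a 1.18-fold range over all livers, and the groups overlapped for both genes. Neither passed, with log2 fold changes of -0.04 ± 0.06 for Serpinc1 (edgeR adjusted p = 0.760) and 0.02 ± 0.09 for Serpind1 (0.930, SE). Serpinc1 shares 2942 exonic bases with Zbtb37 on the opposite strand, and whether strand was used in counting is not given.

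The serpins of fibrinolysis keep plasmin and its activators in check. Serpine2 encodes protease nexin-1, an inhibitor of thrombin and of plasminogen activators. Its lowest, median and highest levels were 12.6, 35.8 and 43.2 CPM in paternal DCHP livers, against 9.60, 19.8 and 24.3 CPM in controls. The 4 livers DCHP 1, 4, 5 and 6 lay above all controls, DCHP 2 and DCHP 3 within their range. The log2 fold change of 0.75 ± 0.29 did not pass (SE, edgeR adjusted p = 0.180) but did without DCHP 2 (0.92, edgeR adjusted p = 0.0861). Serpinf2, which encodes alpha-2-antiplasmin, had 391, 536 and 621 CPM with paternal DCHP, against 440, 460 and 563 CPM in controls (log2 fold change 0.15 ± 0.11, SE, edgeR adjusted p = 0.477). Its DCHP livers lay on both sides of the control range, with DCHP 3 below it and DCHP 1, 4 and 5 above. Serpinb2, which encodes an inhibitor of urokinase, had 0 estimated counts in the paternal DCHP livers and 3 in the controls, and was not tested.

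Serping1 encodes C1 inhibitor, which controls complement C1, plasma kallikrein and factor XII. It had a lowest, median and highest level of 515, 576 and 691 CPM with paternal DCHP, against 541, 582 and 706 CPM in controls, and its groups overlapped widely (log2 fold change -0.02 ± 0.09, SE, edgeR adjusted p = 0.905).

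Of the serpins without inhibitory activity, 3 of 4 were tested and 0 were called. Serpinh1 encodes Hsp47, the collagen chaperone of the endoplasmic reticulum. Its lowest, median and highest levels were 10.4, 15.2 and 22.6 CPM in paternal DCHP livers, against 8.83, 11.2 and 17.0 CPM in controls. DCHP 2 and DCHP 5 lay above all controls and the others among them, and the log2 fold change was 0.46 ± 0.21 (SE, edgeR adjusted p = 0.243). All 9 listed collagen genes bound by this chaperone had positive log2 fold changes, with a median of 0.42, against 51.5% positive over all tested genes. The basement membrane genes Col4a1 (0.88 ± 0.11, SE, edgeR adjusted p = 0.00285) and Col4a2 (0.61 ± 0.08, 0.00832) were called. These 2 of the 9 stand against 0.963% of all tested genes called higher. Of the 9, 4 had an unadjusted edgeR p under 0.05, against 18.9% of all tested genes. Serpina7, the gene of thyroxine-binding globulin, had 20.4, 36.1 and 47.1 CPM with paternal DCHP, against 17.4, 31.5 and 58.3 CPM in controls. Both groups covered nearly the same wide range (log2 fold change -0.04 ± 0.30, SE, edgeR adjusted p = 0.955). Of the other carriers of thyroid hormone, Ttr was at -0.29 ± 0.07 (SE, edgeR adjusted p = 0.0675), which is less than the fold change minimum. Serpinf1, which encodes pigment epithelium-derived factor, had 341, 391 and 404 CPM with paternal DCHP, against 353, 388 and 494 CPM in controls (log2 fold change -0.06 ± 0.08, SE, edgeR adjusted p = 0.721), with only DCHP 3 below the control range.

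Among the other secreted serpins, 3 of 7 were tested and 0 were called. Serpina12 encodes vaspin, an adipokine that was first described in visceral fat of obese rats. It had a lowest, median and highest level of 45.9, 95.2 and 119 CPM in paternal DCHP livers, against 46.6, 70.2 and 88.4 CPM in controls. DCHP 1, 4 and 6 lay above all controls and DCHP 2 below them (log2 fold change 0.36 ± 0.22, SE, edgeR adjusted p = 0.381). Serpina11 had 42.1, 53.5 and 67.8 CPM with paternal DCHP, against 44.9, 54.4 and 58.0 CPM in controls (log2 fold change 0.05 ± 0.11, SE, edgeR adjusted p = 0.838). Its groups overlapped, and it shares 669 exonic bases with Gm28577, so that only 56.1% of its 50-base windows were unique. Serpina9, known from germinal centre B cells, was near the detection limit. It had 0.28, 0.48 and 2.82 CPM with paternal DCHP, against 0, 0.27 and 0.43 CPM in controls. The highest value was that of DCHP 1, from 77 estimated counts, and no other liver had over 15. The log2 fold change of 1.67 ± 0.68 did not pass (SE, edgeR adjusted p = 0.208) and was 0.70 without DCHP 1 (edgeR adjusted p = 0.494).

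**Figure D5:**
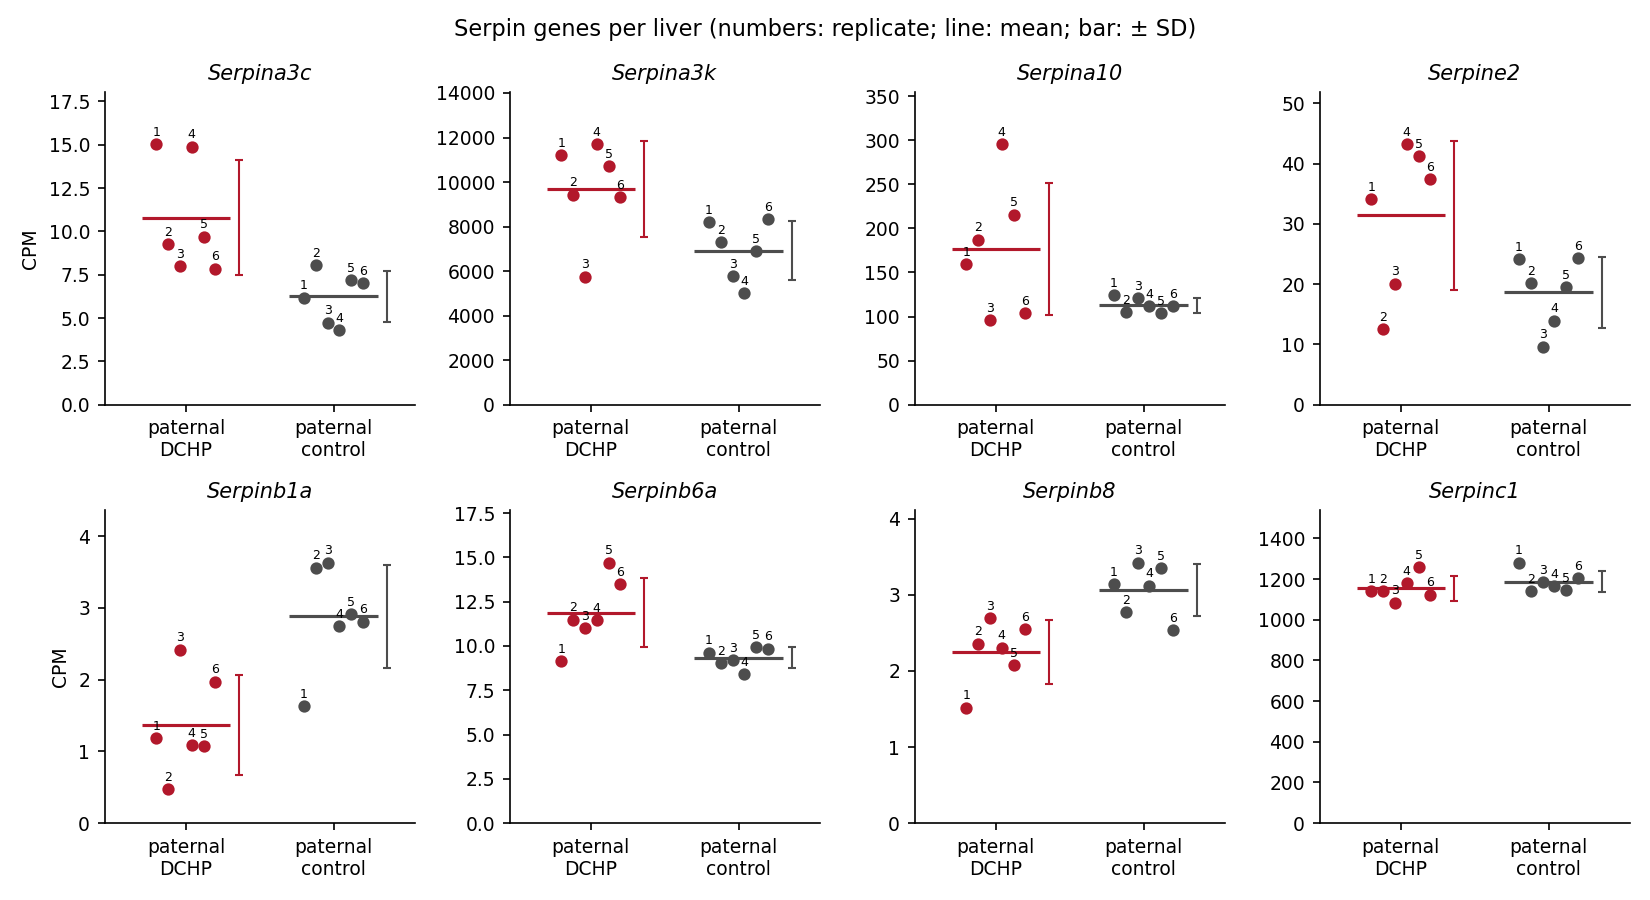
CPM per liver of 8 serpin genes on linear axes that start at 0, paternal DCHP in red at the left and paternal control in grey at the right of each panel, with replicate numbers, a line at the mean and a bar of ± SD. Serpina3c, Serpina3k, Serpina10 and Serpine2 have most DCHP livers above the controls and DCHP 3 not above the control range, Serpinb1a and Serpinb8 have 4 DCHP livers below all controls, and the livers of Serpinc1 lie close together.

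The clade B serpins work inside cells. Of 25 members in this group, 5 were tested, 5 were below the filter and 15 had no count. Serpinb1a encodes the leukocyte elastase inhibitor, which blocks elastase, cathepsin G and proteinase 3. Its lowest, median and highest levels were 0.47, 1.14 and 2.42 CPM in paternal DCHP livers, against 1.63, 2.86 and 3.63 CPM in controls. DCHP 1, 2, 4 and 5 lay below all controls, and DCHP 3, DCHP 6 and control 1 were where the groups overlapped. The log2 fold change of -1.08 ± 0.33 did not pass in edgeR (SE, adjusted p = 0.112), while DESeq2 (-1.08, adjusted p = 0.0285) and limma-voom (-1.20, adjusted p = 0.0953) called it lower. It was also called without DCHP 3 (-1.33, edgeR adjusted p = 0.0679) or DCHP 6 (-1.19, edgeR adjusted p = 0.0897).

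Serpinb6a, whose human counterpart inhibits cathepsin G, had a lowest, median and highest level of 9.14, 11.5 and 14.7 CPM with paternal DCHP, against 8.39, 9.42 and 9.92 CPM in controls. All DCHP livers but DCHP 1 lay above all controls, and the log2 fold change was 0.34 ± 0.11 (SE, edgeR adjusted p = 0.125). Its exons share 762 bases with Nqo2, 584 with 1110046J04Rik and 241 with Ripk1, all on the opposite strand. Serpinb8, whose human counterpart inhibits furin, had 1.52, 2.33 and 2.69 CPM with paternal DCHP, against 2.54, 3.13 and 3.42 CPM in controls. DCHP 1, 2, 4 and 5 lay below all controls, the same livers as for Serpinb1a, and the log2 fold change was -0.44 ± 0.17 (SE, edgeR adjusted p = 0.176). Serpinb6b had 0.79, 3.34 and 3.64 CPM with paternal DCHP, against 0.62, 2.24 and 3.02 CPM in controls (log2 fold change 0.40 ± 0.38, SE, edgeR adjusted p = 0.593). Serpinb9, the granzyme B inhibitor, had 6.60, 9.05 and 12.3 CPM with paternal DCHP, against 7.74, 8.47 and 10.9 CPM in controls (log2 fold change 0.05 ± 0.15, SE, edgeR adjusted p = 0.883). Both of these genes were spread over overlapping ranges.

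Of the 14 members below the filter, Serpina5 stood out after its values were seen. It encodes protein C inhibitor, which in mice is made mainly in the reproductive tract and in humans also in the liver. Its estimated counts were 17, 10, 17, 7, 13 and 17 in DCHP 1 to 6, against 2, 5, 0, 1, 6 and 7 in control 1 to 6. The sums were 81 with paternal DCHP and 21 in controls, and after scaling all 6 DCHP livers (0.32 to 0.71 CPM) lay above all controls (0 to 0.23 CPM). Among all genes that passed the filter, 2.16% had groups that did not overlap. Fitted without the filter, its log2 fold change was 1.96 ± 0.56, which did not pass (SE, edgeR adjusted p = 0.117). Serpina3i had 46.8 estimated counts in all with paternal DCHP and 21.8 in controls, Serpini1 43 and 38, Serpina3b 16 and 23, and Serpinb1c 16.6 and 14.9. The remaining 9 had at most 13 counts in either group. Without the filter no member of the 14 was called by edgeR, and 1, Serpina5, had an unadjusted p under 0.05. Among all genes that passed the filter, 18.9% had such a p. The 18 members with no count were Serpina1f, Serpine3, Serpini2 and 15 clade B genes, mostly of the Serpinb3 and Serpinb9 branches.

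The proteases that these serpins inhibit were set beside them. Of 17 target proteases made in the liver, such as prothrombin, plasminogen and plasma kallikrein, 0 were called, with a median log2 fold change of -0.02. Klkb1, the gene of plasma kallikrein, had the smallest p (-0.27 ± 0.10, SE, edgeR adjusted p = 0.164). Of 10 genes of plasminogen activators and of serpin receptors 0 were called, with a median of 0.13 and Lrp1, which clears serpin-protease complexes, at 0.30 ± 0.12 (edgeR adjusted p = 0.207). Of 22 tested inhibitors of other families 0 were called, with a median of 0.04, and Itih3 was at 0.38 ± 0.09 (edgeR adjusted p = 0.0734), less than the fold change minimum. Of 18 genes for folding, export and degradation of secreted proteins, which handle misfolded alpha-1-antitrypsin, 0 were called, with a median of 0.08 and Edem3 at 0.29 ± 0.07 (edgeR adjusted p = 0.0734). Only 1 of 8 leukocyte serine proteases, Elane, had enough counts to be tested (log2 fold change -0.02, edgeR adjusted p = 0.988). An unadjusted p under 0.05, in either direction, was reached by 4 of the 17 target proteases, 1 of the 10 activator and receptor genes, 2 of the 22 other inhibitors and 2 of the 18 folding and export genes, against 18.9% of all tested genes.

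Many plasma serpins are acute-phase genes, whose transcription hepatocytes adjust in inflammation. All 20 listed acute-phase genes outside the serpins had positive log2 fold changes, with a median of 0.54, against 51.5% positive over all tested genes. The 4 genes Saa1, Apcs, Steap4 and Mt2 were called higher, against 0.963% of all tested genes. Of the 20, 14 had an unadjusted edgeR p under 0.05, against 18.9% of all tested genes. Their summed level was 15063 CPM in DCHP 3, 16955 in DCHP 6, 19070 in DCHP 2, 19459 in DCHP 1, 21739 in DCHP 5 and 38844 in DCHP 4, against 14884 to 15636 CPM in the control livers. DCHP 3, the only DCHP liver within the control range of this sum, was also the lowest DCHP liver for 13 of the 28 serpins, among them Serpina1e, Serpina3k, Serpina10 and Serpinf2. The 13 also held Serpina1a, Serpina1b, Serpina1d, Serpina11, Serpinc1, Serpind1, Serpinf1 and Serping1, with log2 fold changes from -0.06 to 0.07. DCHP 4 was the highest DCHP liver for 9 of the 28, among them Serpina3k, Serpina10 and Serpine2. The 9 also held Serpina1a, Serpina1b, Serpina1c, Serpina11 and Serping1, with log2 fold changes from -0.04 to 0.07, and Serpina3m at 0.28. In the controls, control 1 was the highest liver for 12 of the 28, with an acute-phase sum of 15354 CPM, within the narrow control range. Serpina1e had its highest level in DCHP 2 and Serpina3c in DCHP 1. The part of the acute-phase level in the serpin values was not tested.

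Markers of other cells were set beside the serpins as well. The 8 Kupffer cell markers summed to 381 to 773 CPM in paternal DCHP livers, highest in DCHP 5, against 245 to 360 CPM in controls. All 8 had positive log2 fold changes, against 51.5% of all tested genes. Only 1, C6, was called higher, against 0.963% of all tested genes. C6 was also the largest part of the sum, with means of 262 CPM with paternal DCHP and 143 CPM in controls. Of the 8, 3 had an unadjusted edgeR p under 0.05, against 18.9% of all tested genes. Serpinb6a had its highest levels in DCHP 5 and DCHP 6, the livers with the 2 highest sums. The same held for Serpinb9, Serpina3g, Serpina3f and Serpinb6b, which also did not pass, with log2 fold changes from 0.05 to 0.40. The 9 neutrophil markers summed to 1.35 to 5.88 CPM with paternal DCHP, against 0.17 to 1.18 CPM in controls, with Ly6g at 0 in all libraries. Only 2 of the 9 were tested, and the rest had too few counts. S100a9 was called higher, against 0.963% of all tested genes, while Elane was not called. S100a9 was near the detection limit, with means of 1.19 CPM with paternal DCHP and 0.32 CPM in controls (edgeR adjusted p = 0.0950). The sinusoidal endothelium markers summed to 180 to 222 CPM with paternal DCHP and 180 to 217 CPM in controls, and the stellate cell or fibroblast markers to 156 to 295 CPM with paternal DCHP and 184 to 244 CPM in controls. DCHP 2 was the highest liver for the stellate cell sum and for Serpinh1, and the lowest DCHP liver for Serpine2. The part of these cells in the serpin values was not tested.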

How the data were processed

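Liver RNA from 12 F1 male mice, 6 per group, was sequenced by the study. The values are estimated counts per gene, deposited by the authors in 1 table, and 43.6% of them are not whole. The submitters' processing notes name the build mm10. For the aligner, the counting program, the strand setting and the treatment of reads matching several genes, nothing is given in the sources used here. Counts were rounded, genes with few counts were removed with filterByExpr (minimum count 10), libraries were scaled by TMM, and all 12 libraries entered the quasi-likelihood test of edgeR (4.0.16, R 4.3.3) without covariates. P-values were adjusted by Benjamini-Hochberg over all 12459 tested genes, and a gene was called at an FDR under 0.1 with a fold change above 1.5, as in the study. Of 21683 genes, 4782 had no count. CPM are counts scaled to the TMM-adjusted library size.

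The members and gene lists were chosen with earlier results of these data known. Members named are those called, those at an FDR under 0.2, the tested Serpina1 and Serpina3 genes and, in each role, the 3 smallest p and the highest level per kb. From each other list the called members, at most 4, or else the smallest p are named. The values of 1 tested member that the rule names are not reported here, though it enters the counts and medians. As alternatives, libraries were scaled by RLE, by upper quartiles or by TMM leaving out the top 20 genes, the filter was dropped or set to 1 CPM in 6 libraries, and DESeq2 (1.42.0), limma-voom (limma 3.58.1), a replicate block, removal of length and GC trends and other thresholds were tried, as was leaving libraries out. Tested on simulated counts of this comparison (12354 genes, 200 changed), edgeR recovered 91 of 100 genes changed 2-fold and 99 of 100 changed 3-fold, with 8 false among 198 calls. The simulated spread was that of a typical gene of the same level, and the changed genes had at least 1 CPM. These rates need not hold for serpins that vary more or have fewer counts. Libraries of a group were compared in pairs and held no duplicates (chi-square per degree of freedom at least 17.4). Positions, lengths and transcripts came from GENCODE (GRCm38, 59 of 60 members matched, Serpinb9h not) and promoters from RefSeq (52 of 60 matched). The sum fits replaced the copies by 1 row, and Serpina3n was not part of the Serpina3 sum.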

Additional observations from a re-analysis of the deposited data

Results flagged for a closer look

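In 7 of the 58 sets of 6 livers examined, 1 liver stood far from the others. The test used the gap at the end of the range (Dixon's 95% limit). For independent sets of normally distributed values, chance gives this for about 1 set in 20. The sets here share livers, and Serpina1e in DCHP 2 entered both as CPM and as a share. The 7 of 58 can therefore not be weighed against that rate. Serpina1e stood at 6174 CPM in DCHP 2, where the next DCHP liver had 2357 CPM, and its share of the Serpina1 counts was 27.44% there. Serpina9 stood at 2.824 CPM in DCHP 1, against at most 0.543 CPM in the other DCHP livers. Serpinf1 was lowest in DCHP 3, at 341.1 CPM, where the next DCHP liver had 383 CPM. In the controls, Serpina1a stood at 4129 CPM and Serpind1 at 450.6 CPM in control 1, where the next livers had 3165 and 366 CPM. Serpina3g stood at 11.06 CPM in control 3, against at most 7.89 CPM in the other controls.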

How the results depend on the processing

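Against 2 serpins called higher and 0 called lower, 0 were called higher by limma-voom, without DCHP 1 and 4, or at an FDR under 0.05, and 1 was called lower by DESeq2 and by limma-voom. With single libraries left out, 0 to 4 were called higher and 0 to 1 lower. DESeq2 called 3 higher. Serpina1e kept its direction in all 22 alternatives, with log2 fold changes from 1.40 to 2.17 and adjusted p from 0.0242 to 0.176, and lost its call in 12. Serpina3c kept it too, from 0.47 to 0.87 and 0.011 to 0.181, and lost its call in 11. The summed Serpina1 copies were never called (0.08 to 0.23). The summed Serpina3 cluster (0.40 to 0.59 with single libraries left out) was called only without DCHP 3. The median log2 fold change lay between 0.11 and 0.28. All-gene calls numbered 326 by DESeq2, 59 with the block, and 7 to 233 with libraries left out.

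Genes near 0 changed sign. Without DCHP 1 and 4, log2 fold changes were -0.11 (Serpina11), -0.0048 (Serpina1b), 0.13 (Serpina7) and -0.024 (Serpind1). With the length and GC trend removed, they were 0.061 (Serpina1c), 0.052 (Serpina7), 0.014 (Serpinf1) and 0.046 (Serping1). Serpina7 was at 0.022 by limma-voom and Serpind1 at -0.0045 with upper-quartile factors. With single libraries left out, the ranges were -0.011 to 0.12 (Serpina11), -0.12 to 0.035 (Serpina1c), -0.014 to 0.080 (Serpina1d), -0.18 to 0.15 (Serpina7), -0.037 to 0.13 (Serpinb9), -0.015 to 0.092 (Serpind1), -0.10 to 0.0065 (Serpinf1) and -0.069 to 0.030 (Serping1). The cause was not tested.

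Replicate numbers did not pair the livers, since the correlations of same-numbered deviations lay between -0.120 and 0.169 and only replicate 3 correlated best with its own number. With the replicate block 0 serpins were called in either direction, the median was 0.15, and Serpina7 was at 0.036. Low counts limit Serpina5, Serpina9 and the clade B genes, and shared sequence limits single Serpina1 copies.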
